A study of Homo sapiens with 6 samples.

Results

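The 10 genes described here encode 6 receptor tyrosine kinases and 4 of their secreted or cell surface ligands. The receptors were MET, its relative MST1R (RON), the TAM receptors TYRO3, AXL and MERTK, and KIT. The ligands were HGF for MET, GAS6 and PROS1 for the TAM receptors, and KITLG for KIT. The genes were chosen with earlier results of these data known. Their probes were taken by gene name alone, as every gene probe on the array carrying 1 of these names, which gave 15 probes of 34127 and 10 genes of 25940. Their levels in the luminobasal line pLB were compared with those in the luminal line pLUM.

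MET and MST1R are activated by soluble growth factors that are secreted as inactive precursors and cleaved by serine proteases, and they drive epithelial scattering and migration. TAM receptors bind GAS6 or protein S, the product of PROS1, which bridge the receptor to phosphatidylserine on membranes. AXL is known from invasive and drug-resistant carcinoma, MERTK from clearance of dying cells and TYRO3 from the nervous system. KIT marks luminal progenitors of the normal breast, mast cells and melanocytes, and its ligand, stem cell factor, is made by many epithelia.

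Both lines descend from T47Dco human breast cancer cells grown as xenografts, and were isolated by FACS on the surface proteins CLD3 and CD49f. pLUM cells (CLD3+CD49f-) came from a tumor grown with estradiol (E), and were treated with 1 nM E for 72 h. pLB cells (CLD3-CD49f+) came from a tumor grown with E plus progesterone, and were under estrogen withdrawal (EWD). Fixed cells were then sorted by cytokeratin 5 (CK5) staining and their RNA was hybridized to 3 single-dye Agilent arrays per line, and which CK5 fraction was hybridized is not given in the sources used here. Line and hormone cannot be told apart. Each line is 1 isolate, so that the replicates carry the spread between sorts and not between tumors. In bulk RNA, fewer cells of a kind and less RNA per cell cannot be told apart.

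The labels were checked against their defining markers, by which the lines had been sorted or described. In pLB, KRT5, which encodes CK5, was higher by at least 1754-fold, and ITGA6, which encodes CD49f, by 21.4-fold. CLDN3 was 104-fold lower. The estrogen receptor gene ESR1 was 3.47-fold lower in pLB with its brightest probe (mean log2 signal -2.46 in pLUM and -4.26 in pLB). All 3 ESR1 probes were called lower, and the folds of the others are not given here. For this transcript the paper lists a larger decrease than the brightest probe gave. PGR, a target of the estrogen receptor, was at least 67.5-fold lower in pLB. Over the marker lists, 10 of 10 luminobasal genes were called higher in pLB and 8 of 10 luminal genes lower, although 1 of the 3 probes of KRT8, counted as lower, was called higher. Among genes well above background on all 6 arrays, 3 of 3 luminobasal genes were called higher and 7 of 9 luminal genes lower. Many of these genes are in the paper's own marker list for these lines, so that they identify the lines and give no independent support. Signals correlated at r = 0.984 to 0.991 between pLUM arrays, at 0.972 to 0.989 between pLB arrays and at 0.780 to 0.806 between lines (Pearson, across probes). The 3 pLUM arrays and pLB replicate 1 were on a first slide and scan, pLB replicates 2 and 3 on a second.

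Levels are given as log2 of the signal relative to the 75th percentile of its array, so that 0 is the level that 75% of gene spots do not reach. They compare arrays for 1 probe and not probes with each other. The scanner software marks a spot that is well above background, and the dimmest such signal lay between -5.70 and -4.75 on this scale, depending on the array. A probe was tested if 3 or more of the 6 arrays read it well above background, and called if the lines differed by at least 2-fold with an adjusted p under 0.05 (limma across all tested probes, Benjamini-Hochberg).

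Each value rests on a 60-base probe, of which a selection is shown: the probe pairs of MERTK and PROS1, whose probes differ, single probes of AXL, MET and KITLG, and the 2 coding probes of KIT, which gave no signal. Bases 31 to 60 are printed 5′ to 3′, except for 2 KIT probes within the coding part of the transcript, which are whole. Capitals mark AATAAA, the polyadenylation signal, which 7.67% of all gene probes on the array contain and which 1 of these 15 probes contains. Coordinates are hg19, as the files give them.

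AXL probe, chr19:41767395-41767454: agtattctttggggtgcccctctccttctt
MERTK probe 1, chr2:112766079-112766138: tgccaaaggaaaaaatctctggtgtagata
MERTK probe 2, chr2:112786885-112786944: atggcttcctAATAAAatatgaataaggaa
PROS1 probe 1, chr3:93592149-93592208: cagagggatatagtgaatatcgtatcattg
PROS1 probe 2: gctgataataccttttccttgtctgtaatt
MET probe, chr7:116438290-116438349: tcttctaagaattagatacttgtcactgcc
KITLG probe, chr12:88886653-88886712: actttttaaaataggtgtatgtcccaaccc
KIT probe 2, chr4:55569965-55570024: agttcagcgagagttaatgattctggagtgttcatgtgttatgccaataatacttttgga
KIT probe 3, chr4:55593626-55593685: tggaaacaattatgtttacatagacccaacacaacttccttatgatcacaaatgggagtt

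The MERTK probes lie on different annotated transcripts. Probe 1 was designed on an Ensembl transcript, ENST00000393237, and probe 2, with the polyadenylation signal at its base 41, on the reference transcript NM_006343. Both PROS1 probes were designed on NM_000313, probe 1 at transcript position 3252 and probe 2 at position 2356. The genome position given for PROS1 probe 2 does not lie near that of probe 1 and is not printed.

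All 5 receptors that could be tested were called higher in pLB, whereas the ligands differed among themselves. Of 10 tested probes, 8 (those of MET, MST1R, AXL and TYRO3 and both probes of MERTK and of PROS1) were called higher in pLB, 1 (KITLG) lower, and 1 (GAS6) was not called. Of all 23105 tested probes, 21.9% were called higher in pLB and 23.7% lower, or 45.6% in either direction. The 5 remaining probes, those of HGF and KIT, were well above background on no array. The median log2 fold change of the 10 tested probes was 2.39, beside -0.01 over all tested probes. MERTK probe 2 and both PROS1 probes were tested only because they were bright in pLB, so that they had to differ, and the count and median over tested probes carry that selection. In all 10 tested probes the arrays of the lines did not overlap, as in 68.1% of all probes so compared. With 3 arrays against 3, an exact permutation test of a single probe cannot go below p = 0.1 (two-sided), so that calls rest on the limma fit.

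**Figure D1:**
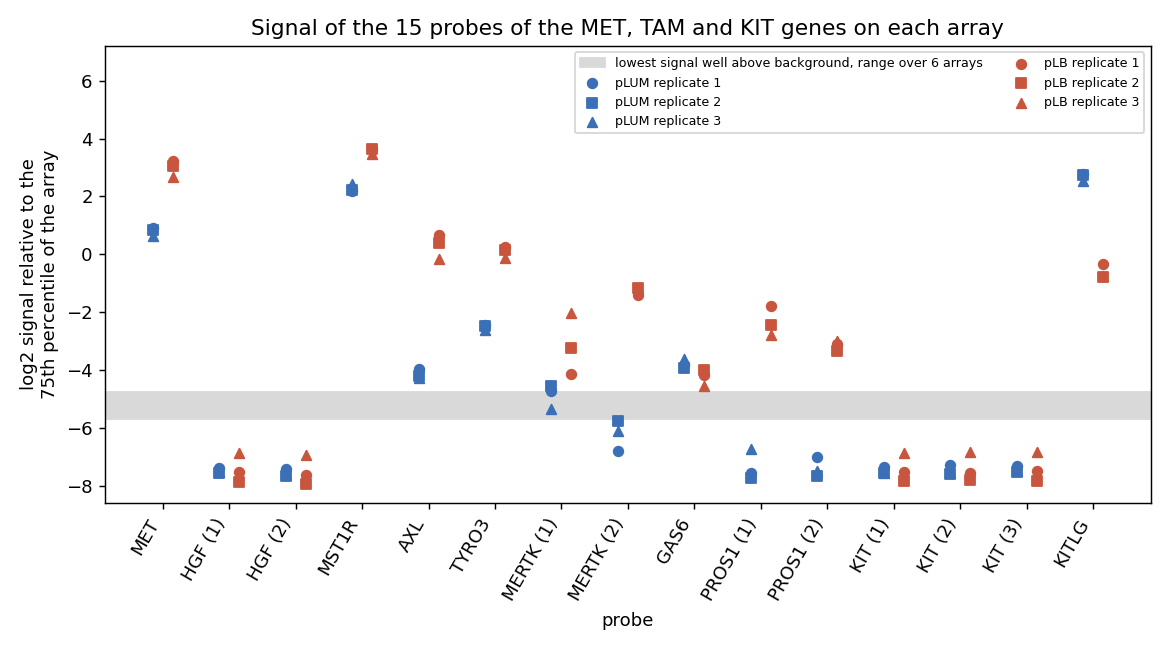
Log2 signal relative to the 75th percentile of the array (vertical axis) for each of the 15 probes (horizontal axis) on the 3 pLUM (blue) and 3 pLB (red) arrays, with the range over arrays of the lowest signal well above background in grey. MET, MST1R, AXL and TYRO3 lay above the grey band in both lines and higher in pLB, KITLG was higher in pLUM, and HGF and KIT lay below the band throughout; heights are not comparable between probes.

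MET, the receptor for hepatocyte growth factor, was 4.55-fold higher in pLB. Its log2 signal was 0.91, 0.85 and 0.62 on pLUM replicates 1 to 3, and 3.22, 3.03 and 2.69 on pLB replicates 1 to 3. Every pLB array thus lay above every pLUM array, and the arrays within a line spanned at most 0.53. The log2 fold change was 2.19 ± 0.20 (SE, adjusted p = 7.1e-05, limma), and each array value was itself a mean over up to 10 spots. Between pLB replicate 1 and the pLUM arrays of the same slide the log2 difference was 2.43.

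MST1R, the receptor for macrophage-stimulating protein, was 2.48-fold higher in pLB, the smallest difference among the 8 probes called higher. Its pLUM signals were 2.18, 2.22 and 2.41, and its pLB signals 3.64, 3.63 and 3.46 (log2). The lines were separated by more than 1 log2 unit with little spread within either. Its fitted log2 fold change was 1.31 ± 0.16 (SE, adjusted p = 0.00032, limma), with a 95% interval from 0.93 to 1.69 that reaches below the 2-fold threshold. The MST1R probe lies at chr3:49924693-49924752.

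HGF, the ligand of MET, was not well above background on any array with either of its probes (chr7:81374349-81374408 and chr7:81380287-81380346). Raw intensities ranged from 2.7 to 4.7 units, whereas the dimmest signals well above background were 12.4 to 20.3 units. No fold is therefore given for HGF. MET was thus measured in both lines, and a transcript of its ligand was not detectable with these probes in either. Each HGF probe was designed on a different annotated transcript, and whether they read other HGF transcripts was not tested.

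AXL showed the widest difference among the receptors measured well above background in both lines, at 21.7-fold higher in pLB. In pLUM the log2 signals were -3.95, -4.21 and -4.27, above the dimmest measurable signals of these arrays (-5.26, -5.43 and -5.44). In pLB they were 0.66, 0.38 and -0.15. AXL thus went from a low but measured level in pLUM to a level near the 75th percentile of the array in pLB, and pLB replicate 3 was the lowest of its line. The log2 fold change was 4.44 ± 0.24 (SE, adjusted p = 6.8e-06, limma), and 4.80 within the first slide. With the normexp background correction, which adds 50 units to every signal and so compresses dim values, it was 2.68 (adjusted p = 0.00048) and AXL remained called.

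TYRO3 was 6.04-fold higher in pLB. Its signals were -2.46, -2.47 and -2.60 in pLUM and 0.24, 0.13 and -0.11 in pLB (log2). Replicates lay within 0.35 log2 units in both lines, far less than the distance between lines. The fitted log2 fold change was 2.60 ± 0.17 (SE, adjusted p = 1.5e-05, limma), 2.75 within the first slide, and 1.68 with normexp (adjusted p = 0.0011). Its probe lies at chr15:41871259-41871318.

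MERTK, the TAM receptor best known from macrophages and retinal epithelium, was called higher in pLB with both probes, but the probes differed in the size of the difference and in the spread of the pLB arrays. Probe 2 read -6.80, -5.75 and -6.12 in pLUM, well above background on 0 of 3 arrays, and -1.42, -1.16 and -1.15 in pLB. For MERTK by this probe, the lower bound on the excess in pLB was 17.5-fold, or 3.20-fold with normexp. The adjusted p of 8.0e-06 (limma) belongs to its fitted log2 fold change of 4.98, and not to either bound. The filter was passed through pLB alone, so that this p-value gives no added support. All 3 pLB arrays lay within 0.26 log2 units. Probe 1 read -4.72, -4.54 and -5.35 in pLUM, where 2 of 3 arrays were well above background, and -4.13, -3.23 and -2.03 in pLB. The pLB arrays of probe 1 spread over 2.10 log2 units, and the lowest of them exceeded the highest pLUM array by little.

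The call of MERTK probe 1 was accordingly fragile. Its log2 fold change was 1.74 ± 0.51 (SE, adjusted p = 0.020, limma), a 3.34-fold difference. It was no longer called with slide as a block (0.74, adjusted p = 0.26), with normexp (0.20, adjusted p = 0.72) or without pLUM replicate 3 (adjusted p = 0.072). In the methods' t-test the p was 0.057 before adjustment. Probe 2 kept its call in each of these alternatives, but it was tested only through its pLB signals. Its call therefore gives no independent support to that of probe 1.

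PROS1, which encodes the TAM ligand protein S, was measurable in pLB alone, with both probes. The genome position given for probe 2 does not lie near that of probe 1, so that what probe 2 measures is less certain. Probe 1 read -7.56, -7.74 and -6.72 in pLUM, and -1.79, -2.43 and -2.81 in pLB. Probe 2 read -6.99, -7.68 and -7.51 in pLUM, and -3.10, -3.33 and -2.99 in pLB. None of the pLUM arrays was well above background for either probe, and each pLB array was for both. PROS1 was at least 8.19-fold higher in pLB by probe 1 and at least 4.72-fold higher by probe 2. The adjusted p-values of 2.3e-05 and 6.0e-06 (limma) belong to the fitted log2 fold changes of 5.00 and 4.26 and not to these bounds. Both probes passed the filter through pLB alone, so that these p-values add no support. With normexp the bounds were 1.97-fold and 1.31-fold, and neither probe was called (adjusted p = 0.054 and 0.30).

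GAS6, the ligand with affinity for all 3 TAM receptors, was low in both lines and was not called. Its signals were -3.83, -3.92 and -3.61 in pLUM and -4.17, -4.00 and -4.56 in pLB (log2). All 6 arrays were well above background, and the pLB arrays lay slightly below the pLUM arrays without overlap. The log2 fold change was -0.46 ± 0.20 (SE, adjusted p = 0.085, limma), with a 95% interval from -0.93 to 0.02, so that the data allow a difference of just under 2-fold. With spike-in scaling it was -0.20 (adjusted p = 0.71). The GAS6 probe lies at chr13:114531550-114531609.

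KITLG was the one member called lower in pLB, by 9.86-fold. In pLUM its log2 signals were 2.78, 2.72 and 2.53. In pLB they were -0.33, -0.77 and -0.77. Its transcript was thus above the 75th percentile of each pLUM array and remained well above background on every pLB array. The log2 fold change was -3.30 ± 0.19 (SE, adjusted p = 8.5e-06, limma), -3.01 within the first slide, and between -3.37 and -2.98 over the other scalings, corrections, filters and blocks tried.

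KIT, the receptor of KITLG, was not well above background in either line with any of its 3 probes, which lie at separate places of the transcript. One of them (chr4:55606511-55606570) is printed 10 times on each array, and of its 59 spots that were not outliers 0 were well above background. KIT intensities ranged from 2.9 to 4.8 units over all probes and arrays. The ligand was thus measured in both lines and its receptor in neither, and no fold is given for KIT.

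**Figure D2:**
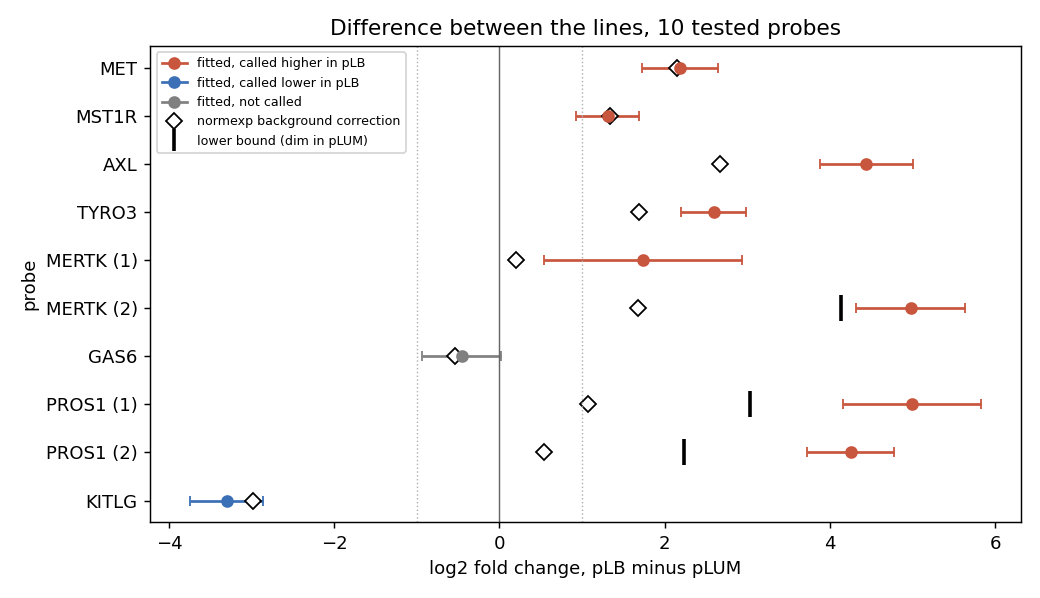
Log2 fold change of pLB over pLUM (horizontal axis) for the 10 tested probes (vertical axis), with filled circles for the limma fit, bars for its 95% intervals, open diamonds for the same fit after normexp background correction, black ticks for lower bounds where no pLUM array was well above background, and dotted lines at 2-fold. MET, MST1R and KITLG moved little with the correction, whereas AXL, TYRO3, MERTK and PROS1, which were dim in pLUM, moved toward 0.

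The differences were examined array by array, since 1 slide held all pLUM arrays and pLB replicate 1 alone. Within that slide every tested probe differed in the direction of the whole comparison. pLB replicate 3 was the lowest pLB array for MET, MST1R, AXL, TYRO3, GAS6 and PROS1 probe 1, and the highest for both MERTK probes, although probe 2 read nearly the same on replicate 2, and for PROS1 probe 2. That array also had the lowest 75th percentile (449 units, others 474 to 869) and the highest limit for a signal well above background (-4.75). Its part in these orders was not tested. Leaving it out changed no call among the members.

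**Figure D3:**
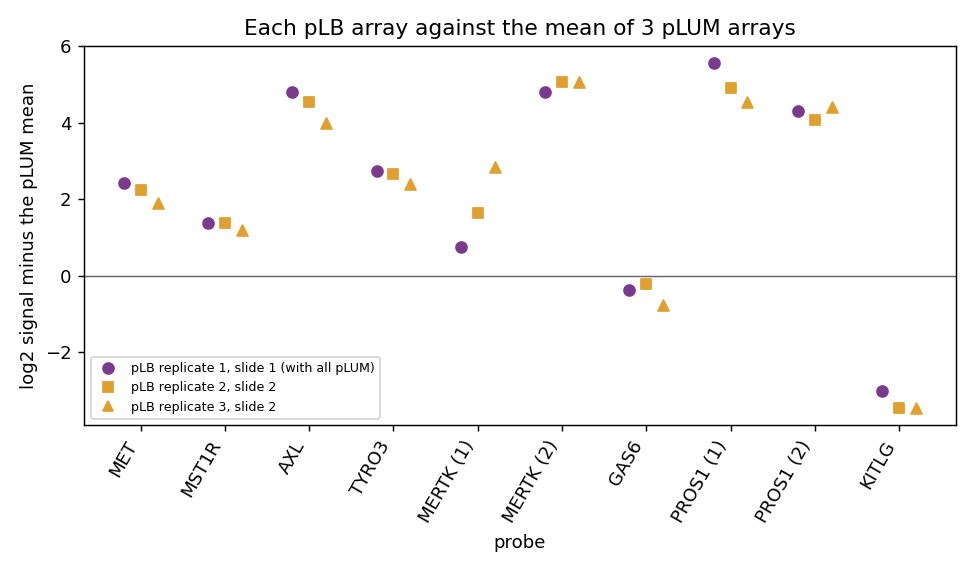
Log2 signal of each pLB array minus the mean of the 3 pLUM arrays (vertical axis) for the 10 tested probes (horizontal axis), with pLB replicate 1, on the slide of the pLUM arrays, in purple and replicates 2 and 3, on the other slide, in yellow. The 3 arrays lay on one side of 0 for every probe and spread over 2.10 for MERTK probe 1, where replicate 1 differed from pLUM by 0.74, 1.02 for PROS1 probe 1, 0.81 for AXL and at most 0.56 for the others.

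RefSeq (GRCh38.p14) lists 12 gene starts for the 10 members. The 250 bases before each start were searched on both strands for GGGCGG, the GC box bound by SP1. The same windows were searched for TATAAA, the box that positions RNA polymerase. A search for TGACTCA, the element bound by AP-1, was also run. These 3 motifs do not overlap at the places found. GGGCGG was found in 9 of the 12 windows, covering 9 of 10 genes, and in 42.6% of 35116 windows of all genes. HGF was the gene with none. TATAAA was found in 1 member window, that of KITLG (10.7% of all windows), and TGACTCA in 0 of 12 (4.20% of all windows). The windows of AXL, the receptor measured in both lines with the widest difference, and of KITLG, the gene called lower, are shown (for AXL the first of its 2 starts) with motifs in capitals, CCGCCC being GGGCGG on the other strand.

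AXL, chr19:41218973-41219222, plus strand, GRCh38.p14: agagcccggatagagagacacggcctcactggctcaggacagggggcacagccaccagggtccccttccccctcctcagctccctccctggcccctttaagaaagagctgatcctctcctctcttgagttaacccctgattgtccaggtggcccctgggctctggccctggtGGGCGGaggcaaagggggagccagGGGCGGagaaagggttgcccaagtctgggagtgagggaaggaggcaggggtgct
KITLG, chr12:88580472-88580721, minus strand, GRCh38.p14: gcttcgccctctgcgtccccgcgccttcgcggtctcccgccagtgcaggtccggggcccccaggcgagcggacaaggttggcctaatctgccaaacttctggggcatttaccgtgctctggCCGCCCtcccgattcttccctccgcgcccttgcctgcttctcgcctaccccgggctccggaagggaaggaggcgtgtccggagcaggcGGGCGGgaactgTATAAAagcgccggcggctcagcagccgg

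The first AXL window and the KITLG window each held 2 copies of GGGCGG, with 4 and 26 CG pairs. The window of the second AXL start (chr19:41226505-41226754) held 0 copies and 13 CG pairs. The median over all windows was 11 and over the 12 member windows 22.

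Genes that act with these receptors were followed in 4 lists of 20 genes each. Each gene was represented by 1 probe. Of the 80 genes, 73 were tested, 26 were called higher in pLB, 15 lower and 32 not called. Over all 17670 tested genes, 22.7% were called higher and 23.0% lower. FURIN, LYN, SH2B3, SPRED1 and SPRED2 were tested only through their pLB signals and MUC20 only through its pLUM signals, so that they had to differ, and the counts and medians carry that selection. Over genes well above background on all 6 arrays, 19 partners were called higher and 13 lower. Tested were then 16 MET and MST1R partners, 17 TAM partners, 12 KIT partners and 18 shared adaptors, with medians of -0.61, 0.73, -0.11 and 0.63. The share of all genes called under this filter or with normexp is not given, so that such counts have no background here. The median log2 fold change was 0.47 over the tested partners and 0.04 over all genes.

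Among the MET and MST1R partners, 0 of 18 tested genes were called higher in pLB and 9 lower, with a median log2 fold change of -0.96. MET and MST1R were themselves higher. MUC20, a mucin that binds MET, was at least 10.2-fold lower in pLB. HPN (hepsin), a protease that cleaves the HGF precursor, was 21.9-fold lower (log2 0.14 ± 0.04 in pLUM and -4.32 ± 0.39 in pLB, SD, n = 3). SEMA4D, which activates the MET-associated plexin B1, was 7.49-fold lower. MST1, the ligand of MST1R, was 4.94-fold lower (4.96 ± 0.10 and 2.65 ± 0.17), although near-identical copies of this gene exist and what the probe measures is uncertain to that degree. The protease ST14 (matriptase) had a log2 fold change of 0.79, and its inhibitors SPINT1 and SPINT2 of -0.003 and 0.50, none of them called. Without the fold and adjusted thresholds, 5 partners lay higher at an unadjusted p under 0.05, the methods' t-test called 0 higher, spike-in scaling called 1 (STAT3), and slide as a block or leaving out pLB replicate 3 called 1 (ST14). DCBLD2 was not called with its representative probe, although 1 of its 3 probes was called higher.

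The TAM partners leaned the other way, with 10 of 19 tested genes called higher, 3 lower and a median of 1.19. ADAM10, a sheddase of AXL, was 7.99-fold higher in pLB (log2 -1.86 ± 0.05 in pLUM and 1.14 ± 0.23 in pLB, SD, n = 3), and both its probes were called. ADAM17, the sheddase named most often for MERTK, was 2.30-fold higher. FURIN, a proprotein convertase, was at least 3.06-fold higher. MFGE8, another bridge to phosphatidylserine, and SOCS1, a cytokine signalling inhibitor induced through TAM receptors, were each 5.08-fold higher, whereas its relative SOCS3 was 2.11-fold lower. DOCK1 and RAC1, which remodel actin for engulfment, were 3.44-fold and 2.72-fold lower. VKORC1, which recycles the vitamin K needed to carboxylate GAS6 and protein S, was called higher with its representative probe and lower with another, so that its direction is unsettled. With normexp, 5 TAM partners were called higher, and FURIN, MFGE8, SOCS1, ADAM17 and SOCS3 were not called. SOCS3 also lost its call with spike-in scaling and without pLB replicate 2, and RAC1 with spike-in scaling and slide as a block.

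KIT partners were called higher in 6 and lower in 2 of 16 tested genes, with a median of 0.27. LYN, a SRC family kinase that binds activated KIT, was at least 10.04-fold higher in pLB. The adaptors SH2B3, at least 3.28-fold, and SH2B2, 4.93-fold, were also higher. ADAM19, a protease reported to cleave KITLG, was 5.82-fold higher. GATA2, a mast cell and progenitor transcription factor, was 4.67-fold lower, and SNX1, a sorting nexin, 3.02-fold lower. With normexp 3 were called higher, SH2B3 and ADAM19 were not, and the median was -0.25. The median was also below 0 with slide as a block (-0.02).

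Adaptors and feedback inhibitors shared by receptor kinases were called higher in 10 of 20 genes and lower in 1, with a median of 0.92. Among those called higher, the named genes were SPRY2, 25.5-fold, SPRED1, at least 6.02-fold, and SPRED2, at least 4.94-fold, all inhibitors of RAS and ERK signalling. SRC was 4.92-fold higher. FRS2, the docking protein of FGF receptors, was the only one lower, by 13.1-fold (log2 2.35 ± 0.25 in pLUM and -1.37 ± 0.14 in pLB, SD, n = 3). GRB2, the adaptor that couples MET and KIT to RAS, had a log2 fold change of 0.80 and was not called. With normexp, 5 genes of this list were called higher, and SPRED1 and SPRED2 were not.

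**Figure D4:**
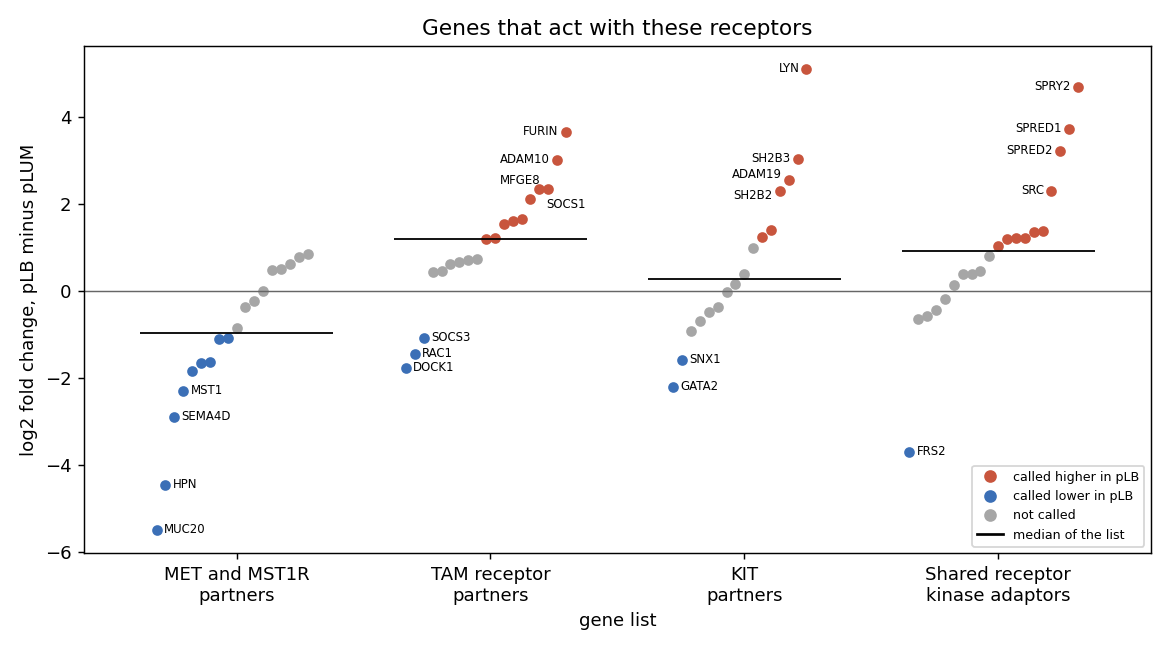
Log2 fold change of pLB over pLUM (vertical axis) for the 73 tested partner genes in 4 lists (horizontal axis), sorted within each list, with red for genes called higher in pLB, blue for lower and grey for not called, and a black line at the list's median. The MET and MST1R partners had 0 genes called higher and a median of -0.96, and the other lists had medians of 1.19, 0.27 and 0.92; points with a lower bound in the text are drawn at their fitted value.

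Other cell types that carry these genes were checked by 8 markers each. For mast cells, 2 of 7 genes with a probe were tested and GATA2 was called lower, with summed linear levels of 0.565 to 0.625 in pLUM and 0.148 to 0.484 in pLB (in units of the 75th percentile). TPSAB1, MS4A2, HDC and FCER1A were well above background on no array. CPA3 was well above background only on pLB replicate 3 (log2 -2.40), too few arrays to be tested. For melanocytes, 4 of 8 were tested and 0 called (1 lower at an unadjusted p under 0.05 in limma, and 0 called by the methods' t-test; 0.819 to 1.22 and 0.860 to 1.15), and TYR, MLANA and SLC45A2 were well above background on no array. OCA2 was well above background on 2 of 3 pLB arrays and 0 of 3 pLUM arrays, too few to be tested, and was called higher in pLB with no filter on dim probes. For leukocytes, 6 of 7 were tested and CD68 was called, 2.87-fold higher in pLB (0.600 to 0.757 and 0.574 to 0.777). PTPRC was not called with its representative probe, although the other of its 2 tested probes was called lower. For fibroblasts, 2 of 8 were tested and COL1A2 was called, at least 11.5-fold higher in pLB (0.779 to 0.976 and 0.796 to 1.16), while COL3A1, DCN, LUM, PDGFRA, PDGFRB and FAP were well above background on no array. For endothelium, 2 of 8 were tested and VWF was called, higher in pLB by at least 1.80-fold (0.0974 to 0.141 and 0.115 to 0.241). PECAM1, KDR, TEK, CLDN5, ERG and TIE1 were well above background on no array. Marker genes not tested are described by their brightest probe. MS4A2, TYR, MLANA, SLC45A2, OCA2, DCN and PECAM1 had further probes, which are not given here. CD68 and VWF were not called with normexp, where VWF was -0.26 (log2). The part of CD68, COL1A2 and VWF in the levels of AXL, MERTK and PROS1 was not tested.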

How the data were processed

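RNA of FACS-sorted pLUM (E, 3 arrays) and pLB (EWD, 3 arrays) cells was hybridized to 1-colour Agilent arrays. The authors deposited Feature Extraction 10.10.1.1 output, in which each spot has a linear intensity that is background-corrected within its array and not normalized across arrays. Names and hg19 positions are those of the files. RefSeq accessions matched 14 of 15 member probes, all with the same symbol.

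Control and outlier spots were left out, each deposited intensity was divided by the 75th percentile of its array, and the log2 values of spots sharing a probe were averaged. The 21285 to 22775 probes well above background per array limit the precision, as does the number of arrays. The fit of pLB against pLUM, without pairs, used lmFit and eBayes of limma 3.58.1 under R 4.3.3. A probe that no array of one line read well above background has a fold bound, its bright mean over the dim line's lowest measurable signal. The fit was tested on simulated data. Alternatives were other corrections, scalings, filters, tests, blocks, probe rules and arrays left out.

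Members and lists were chosen with earlier results of these data known. Named genes were all members, up to 4 genes called in each direction with the largest change per partner list, 5 label markers and any other-cell marker called. ADAM17, ST14, SPINT1, SPINT2, GRB2, VKORC1, PTPRC and CPA3 were named after their values were seen. A gene's representative probe was its brightest. P-values measure only the spread between sorts.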

Additional observations from a re-analysis of the deposited data

How the results depend on the processing

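The tested member probes kept their direction in each alternative in which they were fitted. HGF and KIT have no fold, and MERTK and PROS1 were not fitted with the filter on all 6 arrays. Of 206 member log2 fold changes under an alternative, 199 stayed on their side of the threshold and 7 lost the call, 5 of these being MERTK probe 1 and 2 PROS1. Member probes called higher numbered 8 and lower 1. With normexp background correction 5 were called higher, and with probes well above background on all 6 arrays 4, since the other probes were then not tested. With slide as a block 7 were higher. Leaving out each array in turn gave 7 to 8 higher and 1 lower. Partner genes called higher numbered 26, but 13 with normexp, and 23 to 27 with an array left out, and those called lower 15, and 13 to 16 with an array left out. Of 639 values of named partner and marker genes, 620 kept their call, 18 lost it and 1 was reversed, VWF with normexp (-0.26).

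Replicate numbers do not pair the arrays, since same-numbered arrays deviated from their line means with r = -0.27, -0.09 and -0.22. A replicate block gave 8 member probes higher and 1 lower, and 26 and 15 partner genes. Scan divided the arrays as slide did and was not run separately. Spike-in scaling, known from earlier results of these data, moved the median of all probes by 0.25 (log2), and gave 8 member probes higher and 1 lower, and 28 and 11 partner genes. Normexp moved the median of all probes to -0.26. Signals near the background limit set what can be said of HGF, KIT, and the pLUM levels of MERTK and PROS1.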
